A study of Mus musculus with 15 samples.

Results

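The circadian clock genes described here are 10 genes of the molecular clock, Arntl, Per1, Per2, Per3, Cry1, Cry2, Nr1d1, Nr1d2, Dbp and Tef, measured in the gastrocnemius muscle of the calf. They were taken by name: every probe of the array whose annotated gene symbol is 1 of the 10 was used, which gave 16 of the 25697 probes. Of these, 14 probes of 9 genes passed the detection filter and entered the comparisons, among 9470 features in all, a feature being the brightest probe of a gene. Male C57BL/6 mice of 3 ages were used, with 5 young mice (5 months), 5 middle-aged mice (17 months) and 5 old mice (28 months), 1 Illumina bead array per mouse. None carried a transgene or received an agent, and all ate chow freely. The study set the 3 ages beside each other to follow gene expression in muscle along the lifespan.

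The clock is a loop of transcription that turns about once a day in nearly every cell, muscle fibres included. ARNTL, also called BMAL1, pairs with CLOCK on E-boxes and switches on the Per and Cry genes, whose proteins return to the nucleus and shut ARNTL and CLOCK off. A further arm runs through Nr1d1 and Nr1d2, the REV-ERB repressors of Arntl, and through Dbp and Tef, which activate genes that carry a D-box. The RNA of Dbp and of the Per genes peaks at another time of day than that of Arntl, so levels in a tissue depend on the hour at which it was taken, and Per1 also responds quickly to glucocorticoids and to other acute signals. The hour of muscle collection is not given in the sources used here, and neither is the chip or the scan on which each array was read.

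The arrays were of like quality, with 11534 to 12593 probes detected and a median raw intensity of 74.7 to 93.8 per array. Skeletal muscle markers checked the tissue: 9 of the 10 listed genes were on the array, all 9 were detected on every array, and their mean log2 intensity lay between 14.44 and 14.86. Old mouse 3 lay farthest from its group over all features, with a root mean square deviation from the age mean of 0.47 (log2), followed by old mouse 5 (0.38) and middle-aged mouse 5 (0.35), against 0.17 to 0.28 in the other 12 arrays. Several results, though not all, are also given without old mouse 3 or middle-aged mouse 5. The comparison of old with young mice called 313 of the 9470 features, or 3.31%, at an adjusted p under 0.05 (limma with Benjamini-Hochberg adjustment over all features). This count moved with single arrays, to 152 without young mouse 5 and to 713 without old mouse 5. Old against middle-aged mice gave 0.317% and middle-aged against young mice 0.0106%. All levels below are log2 of the background-corrected, quantile-normalised intensity. A difference of 1 is thus a doubling, and levels of different probes cannot be ranked against each other. In whole muscle, fewer cells of a type and less RNA per cell cannot be told apart.

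With the brightest probe standing for a gene, Cry2 was the only member called in old against young mice. A dimmer Tef probe, fitted as a feature of its own, also passed and is given below. Cry2 encodes a cryptochrome, a repressor of ARNTL and CLOCK. Its level was 7.01, 7.23, 7.48, 7.69 and 7.06 in the 5 young mice, 7.57, 7.93, 7.82, 7.45 and 8.09 in the middle-aged mice, and 8.58, 7.61, 7.79, 8.40 and 8.02 in the old mice. The old and young groups overlapped narrowly, since the lowest old mouse lay at 7.61 and the highest young mouse at 7.69. The group means rose from 7.29 ± 0.29 through 7.77 ± 0.26 to 8.08 ± 0.40 (SD, n = 5 each). Old mice thus stood 0.79 ± 0.19 (SE) above young mice on the log2 scale, a ratio of 1.73, with an adjusted p of 0.029 by limma. Between neighbouring ages the difference was 0.48 for middle-aged against young mice, with a 95% interval from 0.076 to 0.88 that left out 0 before adjustment but not past the threshold after it (limma, unadjusted p = 0.022, adjusted p = 0.85), and 0.31 for old against middle-aged mice (95% interval -0.096 to 0.71, adjusted p = 0.53). The difference between old and young mice was 0.86 with middle-aged mouse 5 and old mouse 3 left out (limma, adjusted p = 0.014). Without old mouse 5 that difference was 0.80 (adjusted p = 0.024). The Cry2 call was lost without young mouse 1, 2 or 5 or old mouse 1 or 4, with an adjusted p of up to 0.089, and when each array was scaled to its median in place of quantiles (0.75, adjusted p = 0.16). It was also lost with the recomputed and the deposited Z scores (adjusted p = 0.065 for each), when replicates were blocked by number (adjusted p = 0.072) and with the methods' t-test after Benjamini-Hochberg (adjusted p = 0.25). Cry2 was thus 1 of 9 measured members called, against the background of 3.31%.

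Markers of macrophages moved along the same comparison. Of the 8 listed macrophage genes 6 were on the array, all 6 were higher in old than in young mice in their estimates, and 2, Lyz2 (1.16, adjusted p = 0.0071) and C1qb (0.96, adjusted p = 0.022), passed limma's test. The mean log2 level of the 6 ran from 6.63 to 7.29 in young, from 7.01 to 7.48 in middle-aged and from 7.01 to 8.25 in old mice. Their part in the Cry2 result was not tested. No listed gene of fat, endothelium, Schwann cells, red cells or slow fibres was called in this comparison, although the mean of the 6 slow fibre genes ran from 9.50 to 12.64 in old against 10.67 to 11.73 in young mice.

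**Figure D1:**
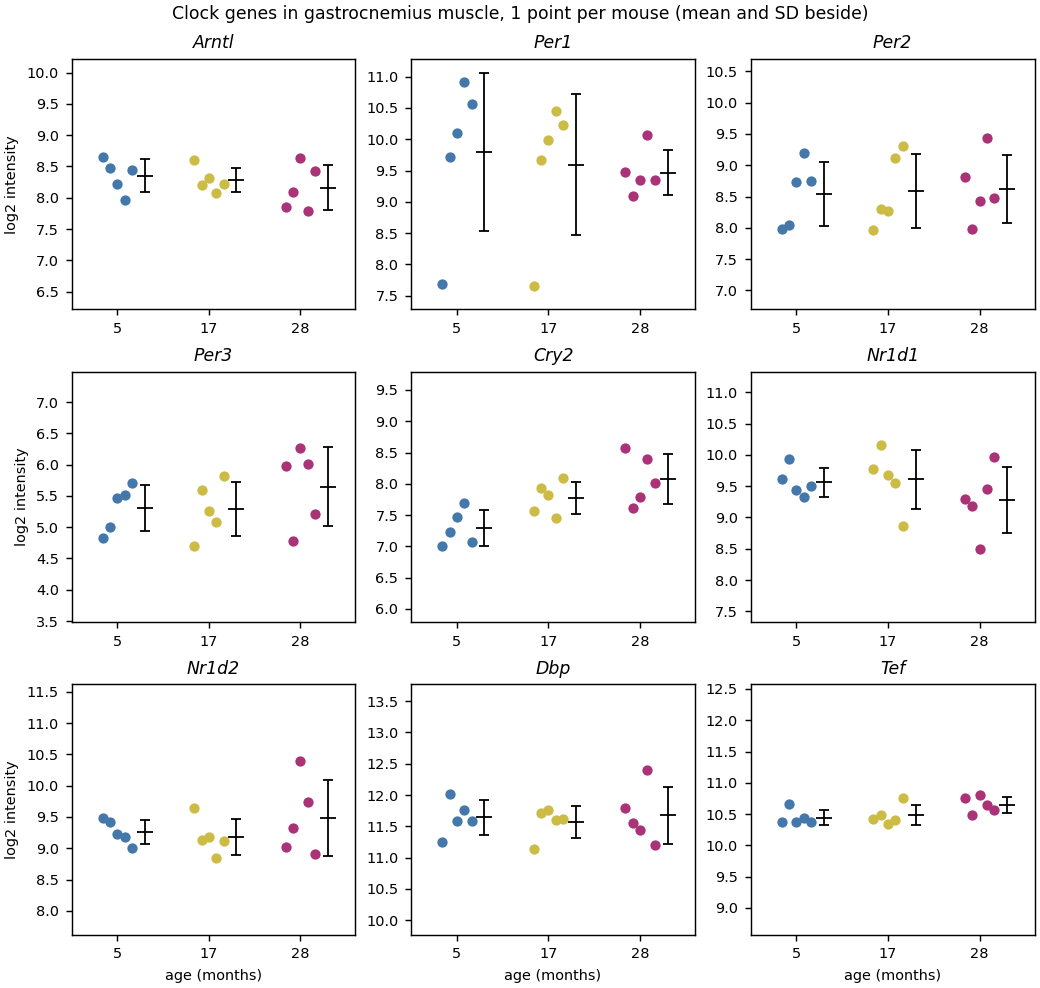
Log2 intensity (vertical axis, 4 log2 units in every panel) of the 9 measured clock genes by age in months (horizontal axis), 1 point per mouse, with the mean and SD of each group of 5 beside the points. Cry2 climbs from a mean of 7.29 to 8.08, and the lowest Per1 points are young mouse 1 (7.68) and middle-aged mouse 1 (7.65).

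Cry1, the other cryptochrome, was not measurable. Its 1 probe was detected on 0 of 15 arrays, with detection p-values from 0.482 to 0.996 and levels from 4.23 to 4.42 at the floor of the scale, so no direction can be given for it.

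The 2 probes of Tef differed in what they showed, and only the dimmer one passed the test. Tef encodes a D-box activator, and the array annotation pairs its brighter probe with the transcript NM_017376 and its dimmer probe with NM_153484. The brighter probe read 10.38, 10.66, 10.37, 10.45 and 10.37 in young mice, 10.42, 10.48, 10.34, 10.40 and 10.76 in middle-aged mice, and 10.75, 10.49, 10.80, 10.65 and 10.56 in old mice. The dimmer probe read 8.55, 8.46, 8.41, 8.67 and 8.17 in young mice, 8.09, 8.39, 8.11, 8.26 and 7.66 in middle-aged mice, and 7.59, 7.89, 6.95, 7.53 and 7.96 in old mice. On the dimmer probe every old mouse lay below every young mouse, and on the brighter probe the groups overlapped. With every probe fitted as a feature of its own, a fit that called 2.76% of 12552 probes in old against young mice, the dimmer probe was lower in old mice by 0.87 ± 0.18 (log2, SE; 1.83-fold lower, adjusted p = 0.014 by limma), while the brighter probe differed by 0.21 ± 0.11 (95% interval -0.021 to 0.43, adjusted p = 0.32). The dimmer probe's call was lost with each array scaled to its median (adjusted p = 0.076) and without young mouse 4 and middle-aged mouse 2 (adjusted p = 0.053). It was the 1 of 14 member probes whose old and young mice did not overlap, against 4.4% of all probes.

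The gap between the probes is given as a description, since it was looked at because the probes were seen to differ. Within an array the brighter probe exceeded the dimmer one by 1.99 ± 0.20 in young, 2.38 ± 0.41 in middle-aged and 3.07 ± 0.51 in old mice (log2, SD, n = 5 each). The gap was thus 1.08 wider in old than in young mice on average, and the widest gap, 3.85, belonged to old mouse 3. Among the middle-aged mice the widest gap, 3.10, belonged to mouse 5, so these 2 mice raise the means of their groups. The gene-level estimate for Tef, 0.21 (adjusted p = 0.31), came from the brighter probe.

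**Figure D2:**
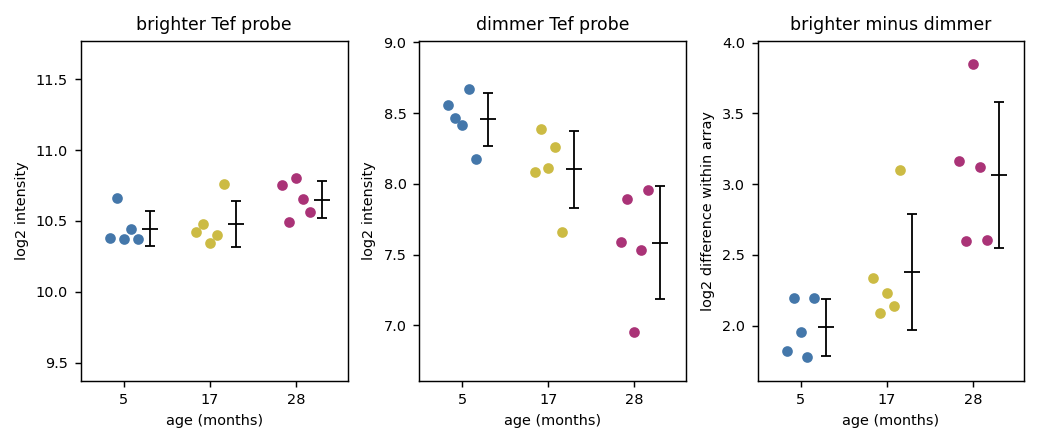
The 2 Tef probes by age in months, 1 point per mouse with the mean and SD of each group of 5: brighter probe, dimmer probe (both log2 intensity) and their difference within each array (log2). The difference grows from a mean of 1.99 in young to 3.07 in old mice.

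Arntl, the activator of the loop, did not differ with age by limma's test. It read 8.64, 8.47, 8.22, 7.97 and 8.45 in young mice, 8.61, 8.20, 8.32, 8.08 and 8.22 in middle-aged mice, and 7.86, 8.10, 8.63, 7.79 and 8.43 in old mice. The 3 groups covered nearly the same range. Old minus young was -0.19, with a 95% interval from -0.55 to 0.17 (adjusted p = 0.59).

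The Period genes, repressors that act with the cryptochromes, did not differ with age either. Per2 read 7.99, 8.05, 8.74, 9.19 and 8.75 in young mice, 7.96, 8.30, 8.27, 9.12 and 9.31 in middle-aged mice, and 8.82, 7.98, 8.43, 9.43 and 8.47 in old mice, and each age held mice near the bottom and near the top of the range. Its difference between old and young mice was 0.09, with a 95% interval from -0.54 to 0.71 (adjusted p = 0.91). The second Per2 probe past the filter gave 0.014, and the third was detected on 1 array and was not used. Per3 was dim, detected on 12 of 15 arrays. It read 4.83, 5.01, 5.47, 5.52 and 5.71 in young mice, 4.70, 5.60, 5.25, 5.09 and 5.82 in middle-aged mice, and 5.99, 4.78, 6.26, 6.01 and 5.21 in old mice. The 3 highest Per3 levels were those of old mice, yet another old mouse was among the lowest, and the difference between old and young mice, 0.34 (95% interval -0.22 to 0.90), did not pass (adjusted p = 0.52). For Per1, given below with its spread, old minus young was -0.33, with a wide 95% interval from -1.42 to 0.77 (adjusted p = 0.78).

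The REV-ERB genes did not pass the test with age. Nr1d1 read 9.61, 9.93, 9.44, 9.33 and 9.50 in young mice, 9.77, 10.16, 9.68, 9.56 and 8.86 in middle-aged mice, and 9.30, 9.19, 8.50, 9.45 and 9.96 in old mice. Nr1d2 read 9.48, 9.42, 9.22, 9.19 and 9.01 in young mice, 9.64, 9.14, 9.17, 8.84 and 9.11 in middle-aged mice, and 9.02, 9.33, 10.40, 9.74 and 8.91 in old mice. Old mouse 3 held the lowest Nr1d1 and the highest Nr1d2 level of all 15 mice. Old minus young was -0.28 for Nr1d1 (adjusted p = 0.55) and 0.22 for Nr1d2 (adjusted p = 0.64). Without old mouse 3 the estimate became -0.088 for Nr1d1 and -0.014 for Nr1d2.

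Dbp, the D-box activator whose RNA is among the strongest cycling outputs of the clock, had the smallest difference between old and young mice of the 9 measured members. It read 11.25, 12.02, 11.59, 11.77 and 11.59 in young mice, 11.13, 11.71, 11.77, 11.61 and 11.62 in middle-aged mice, and 11.79, 11.55, 11.44, 12.40 and 11.21 in old mice. The difference was 0.03 (95% interval -0.37 to 0.44, adjusted p = 0.95), and its sign turned without young mouse 1 or old mouse 4. Across the 9 measured members the median difference between old and young mice was 0.09, beside -0.02 over all 9470 features. None of the 9 was called in old against middle-aged mice, where the lowest adjusted p was 0.53, or in middle-aged against young mice, where the lowest was 0.85. At an unadjusted p under 0.05, 0 members passed in the first, where 12.2% of all features did, and 1, Cry2, in the second, where 5.07% did. The step from middle-aged to old was also set against the step from young to middle-aged in the same model: 0 members differed between the steps (lowest adjusted p = 0.97, 0 at an unadjusted p under 0.05), with 0.0211% of all features called.

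The sequences upstream of the members were searched for the elements that the clock proteins read. RefSeq (build GRCm38.p6) gave 12 start sites for 9 of the 10 genes, and the 250 bases before each were read on both strands for the E-box CACGTG, the D-boxes TTATGTAA and TTATGCAA, the REV-ERB and ROR element TAGGTCA and the cyclic AMP element TGACGTCA. The E-box stood upstream of Per1, Cry1 and Tef, 3 of the 9 genes against 6.86% of 27018 genes, or 4 of the members' 12 windows against 6.02% of all 32841 windows. TTATGTAA was found for Per3 (0.819% of all windows) and TTATGCAA for Per1 (0.694%), while TAGGTCA (2.24%) and TGACGTCA (1.55%) were in no window of a member. Upstream of the start, the motif-bearing windows of Per1 and Per3, which had the widest and the third widest spread of the members between mice of an age, and the windows of both Tef start sites, whose probes differed, are given 5′ to 3′ with each motif in capitals. A match is a description of the letters only, and the table does not say which Tef start belongs to which probe. The Per1 window lies at chr11:69098699-69098948 (+), the Per3 window at chr4:151044666-151044915 (-), the first Tef window at chr15:81802423-81802672 (+) and the second at chr15:81811164-81811413 (+).
Per1: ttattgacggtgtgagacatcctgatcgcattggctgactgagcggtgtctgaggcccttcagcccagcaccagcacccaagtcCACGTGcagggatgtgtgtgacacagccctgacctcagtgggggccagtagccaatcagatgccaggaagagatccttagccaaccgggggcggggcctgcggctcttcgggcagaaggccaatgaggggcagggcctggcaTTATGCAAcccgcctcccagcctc
Per3: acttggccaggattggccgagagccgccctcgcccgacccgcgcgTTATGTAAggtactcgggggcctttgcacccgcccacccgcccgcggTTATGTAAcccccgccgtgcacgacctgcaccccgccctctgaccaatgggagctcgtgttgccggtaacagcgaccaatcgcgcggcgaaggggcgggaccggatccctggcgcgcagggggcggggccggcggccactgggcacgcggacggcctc
Tef, first start: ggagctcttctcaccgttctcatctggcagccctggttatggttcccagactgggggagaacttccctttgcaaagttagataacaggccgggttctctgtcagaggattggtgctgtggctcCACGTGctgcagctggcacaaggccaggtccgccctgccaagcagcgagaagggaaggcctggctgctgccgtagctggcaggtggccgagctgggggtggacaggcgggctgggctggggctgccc
Tef, second start: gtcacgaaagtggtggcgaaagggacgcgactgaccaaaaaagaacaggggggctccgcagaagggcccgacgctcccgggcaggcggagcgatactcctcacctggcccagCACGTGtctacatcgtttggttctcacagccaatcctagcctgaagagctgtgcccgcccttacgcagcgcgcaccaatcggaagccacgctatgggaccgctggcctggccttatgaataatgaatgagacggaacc

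Per1 carried 1 E-box and 1 D-box in this window, and its other annotated start had neither. Per3 carried its D-box 2 times, at 205 and 158 bases before the start, and both Tef starts had 1 E-box each. The Dbp, Arntl, Cry2, Nr1d1 and Nr1d2 windows held none of the 5 motifs.

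Beyond the members, a wider list of 24 clock genes was read in the same fit. Of these, 21 were on the array and 13 passed the filter. Against 3.31% of all features called in old against young mice, 1 of the 13 was called, 0 higher and 1 lower. That gene was Nfil3, which encodes a repressor that binds the same D-box as DBP and TEF. Nfil3 read 10.02, 9.86, 10.44, 11.29 and 10.86 in young mice, between 9.79 and 10.72 in the 5 middle-aged mice, and 9.05, 9.71, 9.32, 9.11 and 9.85 in old mice. Every old mouse was below every young mouse, narrowly so at 9.85 against 9.86. Over all probes, 4.4% had old and young mice that did not overlap. The fall was 1.09 ± 0.25 on the log2 scale (SE; 2.12-fold lower, adjusted p = 0.020 by limma), and it was not past the threshold without young mouse 4 or 5 or old mouse 1 or 4, with an adjusted p of up to 0.067. The median difference of the 13 genes was -0.16, beside -0.02 for all features, and none of the 13 was called in the other comparisons. Clock itself, the partner of ARNTL, differed by 0.28 (adjusted p = 0.50) and Rora, an activator of Arntl, by 0.07 (adjusted p = 0.87).

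Genes known as outputs of the muscle clock were read next. Old against young mice called 3.31% of all features, and of 8 listed genes, all measured, 1 was called higher in old mice and 0 lower. This was Tbc1d1, a regulator of glucose transporter traffic (0.83, ratio 1.78, adjusted p = 0.049), and its call was lost under 19 of 28 alternatives, each with the same direction. Pdk4, a kinase that restrains pyruvate oxidation, differed by -0.03 (adjusted p = 0.98), Hk2, a hexokinase, by 0.0015 (adjusted p = 0.997) and Myod1, the myogenic regulator, by 0.08 (adjusted p = 0.85). Larger estimates that did not pass were those of Pdp1, a phosphatase that activates pyruvate dehydrogenase (0.55, adjusted p = 0.17), Ucp3, a mitochondrial uncoupling protein (-0.52, adjusted p = 0.47), and Coq10b, a coenzyme Q binding protein (-0.35, adjusted p = 0.62). The median of the 8 was 0.04, with 5 estimates above 0 and 3 below.

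Mice of 1 age lay far from each other for several clock genes. The pooled SD within the age groups was 0.999 for Per1, 0.55 for Per2, 0.49 for Per3, 0.43 for Nr1d1, 0.40 for Nr1d2, 0.34 for Dbp, 0.32 for Cry2, 0.28 for Arntl and 0.14 for Tef, on the log2 scale. The median over all 9470 features was 0.25, and 8 of the 9 members lay above it. Only 0.137% of features had an SD as high as that of Per1, 2.75% as high as that of Per2 and 4.41% as high as that of Per3, whereas 94.9% reached that of Tef. Among features of like brightness (within 0.5 log2 units of the member's mean) the shares were 0.567% for Per1, 2.17% for Per2 and 3.76% for Per3. The 90th percentile of all SDs was 0.41, and 4 members lay at or above it. These shares are a description and no test was made of them.

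**Figure D3:**
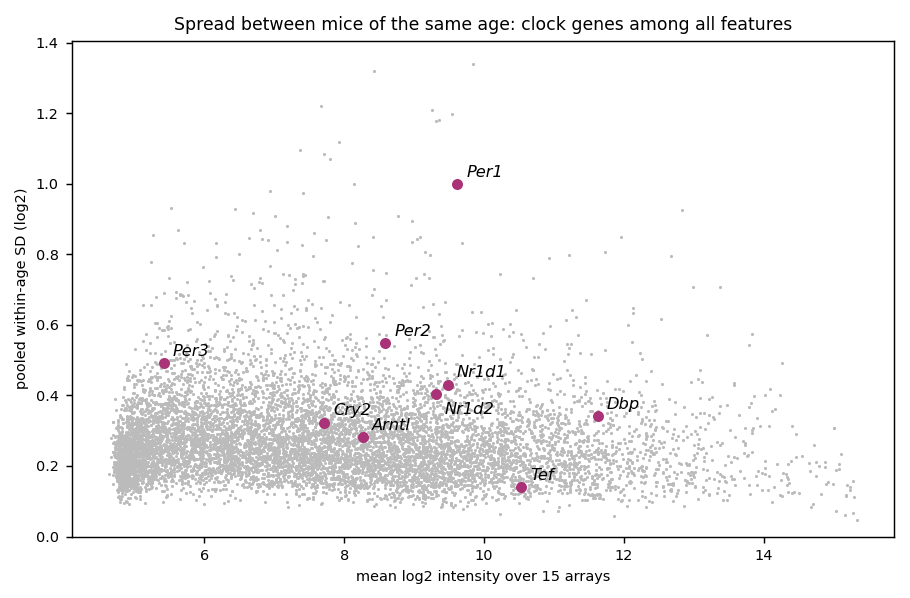
Pooled SD within age groups (vertical axis, log2) against the mean log2 intensity over 15 arrays (horizontal axis) for 9470 features in grey, with the 9 measured clock genes in colour. Per1 stands at 0.999, far above the median of 0.25, and Tef at 0.14 lies in the lower part of the cloud.

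Per1 owed its place to a pair of mice. It read 7.68, 9.72, 10.10, 10.91 and 10.56 in young mice, 7.65, 9.66, 9.98, 10.46 and 10.22 in middle-aged mice, and 9.47, 9.10, 9.35, 10.06 and 9.35 in old mice. Young mouse 1 and middle-aged mouse 1 were lower than every other mouse, by 1.42 log2 units or more, and the lowest and highest mice of the series were 9.53-fold apart. The second Per1 probe gave the same picture, with 6.35 in young mouse 1, 6.18 in middle-aged mouse 1, and 7.47 to 9.43 in the others. Within groups the SD was 1.26 in young, 1.12 in middle-aged and 0.36 in old mice, a contrast between ages that was not tested. Without these 2 mice the pooled SD of Per1 was 0.41, which 11.9% of features reached, so the extreme spread of Per1 rested on them, whereas Per2 (0.52, 3.96%) and Per3 (0.47, 6.62%) stayed above the 90th percentile.

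Per1 and Per2 moved together between mice of the same age. After subtraction of the age means, Pearson's r over the 15 mice was 0.75 (permutation within age groups, two-sided, p = 0.0002, adjusted over 36 pairs of members 0.0072) and Spearman's rho 0.82 (permutation p = 4e-05, adjusted 0.0014). Without young mouse 1 and middle-aged mouse 1, the 2 mice farthest from the median of Per1, r was 0.89. Over the 25 alternatives of processing and of single or paired arrays, it ran from 0.71 to 0.79. These include a block by replicate number but not leaving out that pair. The permutation treats mice of an age as exchangeable. However, both mice of that pair carry replicate number 1, and mouse 4 was the highest for Per1 and the lowest for Arntl at each age. The other positive pairs were weaker: Per2 with Per3 gave r = 0.65 (permutation p = 0.017, adjusted 0.089), Per1 with Dbp 0.59 (permutation p = 0.0077, adjusted 0.067) and Per1 with Per3 0.59 (permutation p = 0.0054, adjusted 0.064), and none passed after adjustment. Without the same 2 mice, Per1 with Dbp fell to r = 0.27 and Per1 with Per3 to 0.40.

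Arntl ran against Per1 under the main normalisation, with r = -0.63 (permutation p = 0.0026, adjusted 0.046). With the other members no pair passed after adjustment: r was -0.68 with Per2 (permutation p = 0.0093, adjusted 0.067), -0.65 with Cry2 (permutation p = 0.032, adjusted 0.13), -0.69 with Dbp (permutation p = 0.015, adjusted 0.089) and -0.27 with Per3 (permutation p = 0.42, adjusted 0.54). Spearman's rho was -0.66 with Per1 (permutation p = 0.0061, adjusted 0.11) and -0.60 with Dbp (permutation p = 0.036, adjusted 0.19). Without the 2 mice farthest from the median of Arntl, r was -0.64 with Per1 and -0.63 with Dbp. Without young mouse 1 and middle-aged mouse 1, the pair low for Per1, it was -0.53 with Per1 and -0.58 with Dbp. These correlations depended on how arrays were put on 1 scale: with each array scaled to its median they were -0.24 with Per1, -0.050 with Per2, -0.047 with Cry2 and -0.067 with Dbp, while Per1 with Per2 was 0.78. Of the 36 pairs, 2 passed on Pearson's r after adjustment, Per1 with Per2 and Per1 with Arntl, and 1 on Spearman's rho, Per1 with Per2. Genes outside the clock also ran against Arntl under the main normalisation. Among macrophage genes r was -0.68 for C1qc, -0.67 for C1qb, -0.63 for C1qa and -0.61 for Lyz2, but -0.43 for Cd14 and -0.077 for Mrc1. Slow fibre genes ran from -0.63 (Myl2) to -0.34 (Myh7). With Arntl as a covariate 13.2% of all features passed at an unadjusted p under 0.05 (limma), and none after adjustment. The part of these cells and fibres in the Arntl correlations was not tested. Whether the hour of collection differed between mice was not tested, as no source used here gives it.

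**Figure D4:**
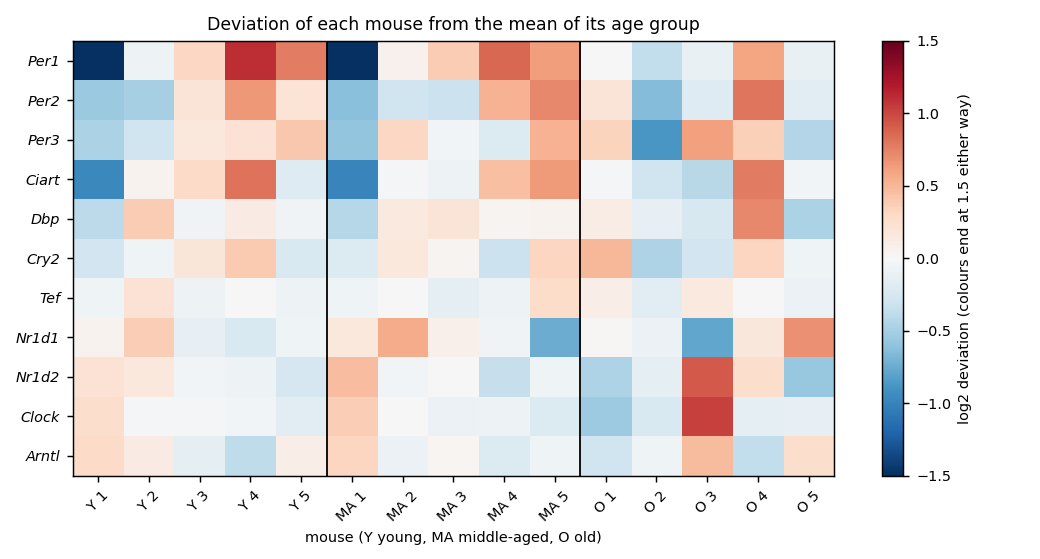
Deviation of each mouse (columns, grouped by age) from the mean of its age group, in log2 units by colour (red above, blue below), for the 9 measured clock genes with Ciart and Clock of the wider list (rows). Young mouse 1 and middle-aged mouse 1 are blue for Per1, Per2 and Ciart and red for Arntl and Clock, and old mouse 3 is the darkest red for Nr1d2 and Clock.

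Per1 was then taken as a covariate beside age for all other features, a fit chosen after its spread was seen. It called 6 of 9469 features (0.0634%), all of which rose with Per1: Slc25a25, a calcium-regulated mitochondrial carrier of adenine nucleotides, Ddit4, an inhibitor of mTORC1 that stress and glucocorticoids induce, Gadd45g, a stress-response gene, Hdc, the histidine decarboxylase, Ciart, a further repressor of ARNTL and CLOCK, and Arrdc2, an arrestin-domain gene. Slc25a25 was closest, with a slope of 1.17 ± 0.08 (SE, log2 per log2 of Per1, adjusted p = 1.8e-07 by limma) and r = 0.97 over 15 mice. Its level was 7.57, 10.14, 10.72, 11.55 and 11.39 in young mice, 7.68, 9.70, 10.45, 11.01 and 10.17 in middle-aged mice, and 8.37, 8.63, 8.24, 8.86 and 8.57 in old mice. Young mouse 1 and middle-aged mouse 1 were again the lowest 2 of all, and the old mice lay close together near the bottom of the range. Old minus young was -1.74 for Slc25a25, which did not pass (adjusted p = 0.13).

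The low pair of mice shaped this group as well. The lowest level was that of young mouse 1 for Slc25a25, Ddit4, Hdc and Ciart, that of middle-aged mouse 1 for Gadd45g and that of old mouse 2 for Arrdc2. With both of these mice left out, none of 9310 features passed (171 at an unadjusted p under 0.05), while r with Per1 was 0.83 for Slc25a25, 0.79 for Ddit4, 0.78 for Arrdc2, 0.76 for Hdc, 0.71 for Ciart and 0.45 for Gadd45g. Spreads of this size were shared by few features, since 0.0528% had an SD as high as Slc25a25, 0.106% as high as Arrdc2 and 0.116% as high as Ddit4. A list of 19 glucocorticoid and fasting genes, 16 of them measured, held 9 genes at or above the 90th percentile of SD. A list of 14 immediate early genes, 10 of them measured, held 8. Such spread was not particular to these lists, since 6 of 6 measured slow fibre genes, 2 of 2 fat genes and 2 of 2 red cell genes reached it. Of the other cell type lists, 2 of 6 macrophage, 1 of 2 Schwann cell, 1 of 9 skeletal muscle and 0 of 4 endothelial genes did. Over the glucocorticoid and fasting list r with Per1 within age groups ran from -0.22 (Mt2) to 0.90 (Ddit4), and only Mt2 and Pdk4 were below 0. It was 0.69 for Sgk1, 0.72 for Foxo1 and 0.61 for Tsc22d3 and Klf9, but 0.02 for Fkbp5. Over the immediate early list r ran from -0.35 (Egr1) to 0.45 (Atf3), with 0.05 for Fos. Handling, feeding and hormone levels of the mice were not measured in these files, and their part in the spread was not tested.

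**Figure D5:**
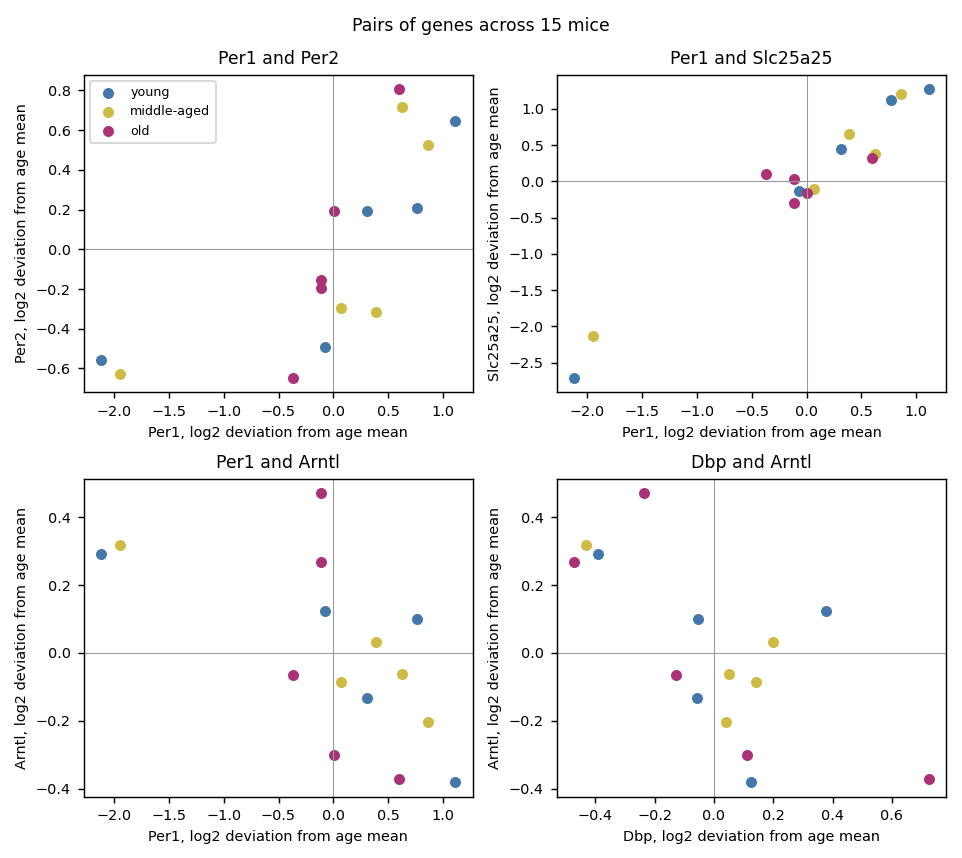
Log2 deviations from the age mean for 15 mice, coloured by age: Per1 with Per2, with Slc25a25 and with Arntl, and Dbp with Arntl. The first 2 panels rise (r = 0.75 and 0.97) and the last 2 fall (r = -0.63 and -0.69), and young mouse 1 and middle-aged mouse 1 are the points at the far left of the Per1 panels.

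With Dbp as the covariate 0% of features passed (472 at an unadjusted p under 0.05). With Arntl it was 0% under the main normalisation (1251 at an unadjusted p under 0.05), but 272 features with each array scaled to its median, and with Per2, Per3, Cry2 or Tef under the main normalisation it was 0% as well. The named features most like Dbp over the 15 mice were Lrrn4cl, Htra2, Rae1, Plekhj1, Padi1 and Fmo2, with r from 0.77 to 0.81, and those least like it were Atp7a, Mindy2, Lox, Aldh1l2, Asgr2 and Plscr1, with r from -0.82 to -0.77. For Arntl they were Vta1, Glo1, Cept1, B3galnt2, Cdk19 and Rdh7 (r from 0.80 to 0.90) and Avil, Mid1ip1, Icam1, Pim3, Lgi4 and Vgll2 (r from -0.89 to -0.83). No clock member was among them. Ciart, chosen here after its values were seen, had r = 0.69 with Dbp and -0.78 with Arntl. Neither passed after adjustment (limma, adjusted p = 0.89 with Dbp and 0.28 with Arntl). The 2 lowest Ciart levels were those of young mouse 1 (6.17) and middle-aged mouse 1 (6.35).

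Nr1d1 and Nr1d2 went with many features at once. As covariates they called 16.2% and 11.5% of all features (1531 and 1089), of which 1014 and 743 rose with the gene, and neither list held another measured member. With middle-aged mouse 5 and old mouse 3 left out, 1 feature was called for each. Within age groups, r between Nr1d1 and Nr1d2 was -0.40 (permutation p = 0.27, adjusted 0.44), and without the 2 mice farthest from the median of Nr1d1 it was 0.0083. Without middle-aged mouse 5 and old mouse 3 the pooled SD fell from 0.43 to 0.28 for Nr1d1 and from 0.40 to 0.30 for Nr1d2, and that of Per1 was 1.07.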

How the data were processed

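RNA from 15 gastrocnemius muscles was read on MouseRef-8 bead arrays (Illumina), 1 muscle per array. The authors deposited a raw intensity for each of 25697 probes and 15 arrays, read with GenomeStudio 2011.1, and beside each a detection p-value against the negative control beads, both used here. The authors also deposited a Z score per probe and array (natural log, centred and scaled per array), which a recomputation from the raw values matched to within 0.001 and which served as an alternative. Annotation gave 1 gene for 23978 probes and none for 1719.

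Here intensities were background-corrected and quantile-normalised by neqc of limma 3.58.1 in R 4.3.3 (offset 16), probes with a detection p under 0.05 on at least 5 arrays were kept, and the brightest probe stood for a gene. Ages were compared by limma's moderated test with an intensity trend, two-sided, 15 arrays in 1 model, with Benjamini-Hochberg adjustment over all features. Dim signals near the negative controls are compressed by this scale, which understates their differences. Correlations used deviations from age means and 100000 permutations within age groups. The fits on age and on Dbp were tested on simulated data with noise independent between features. Such data hold no deviation shared across an array, so they do not bear on the counts for Nr1d1 and Nr1d2. The members and lists were chosen with earlier results of these data known. Named were every member probe, called genes of the wider list, and the 6 features most and the 6 least like Dbp and Arntl. Genes that moved with Per1, and the gap between the Tef probes, were chosen after seeing the data. The precision is limited by 5 mice a group.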

Additional observations from a re-analysis of the deposited data

Results flagged for a closer look

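Within groups of 5 mice, a mouse was set apart where its gap to the nearest other exceeded the limit of Dixon's test. This was done for 14 member probes in 3 groups, 42 in all, of which chance alone sets apart about 1 in 20. The brighter Per1 probe marked middle-aged mouse 1, at 7.65 with the others from 9.66 to 10.46 (log2). The dimmer Per1 probe did not mark it, at 6.18 with the others from 7.99 to 9.02. The same mouse was marked for Dbp, at 11.13 (the others lay from 11.61 to 11.77). The dimmer Nr1d2 probe marked old mouse 3, at 6.29 with the others from 5.15 to 5.40. The brighter Tef probe marked young mouse 2, at 10.66 with the others from 10.37 to 10.45.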

How the results depend on the processing

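The age of the mice gave 1 called member in old against young mice, Cry2, and this count was 0 when each array was scaled to its median, with the recomputed or the deposited Z scores, and with the methods' t-test after Benjamini-Hochberg, and 2 with every probe a feature, which adds Tef. It ran from 0 to 1 as single arrays were left out. The methods' threshold was taken here as a Z ratio beyond 1.5 either way and an unadjusted p under 0.05, without their condition on average intensity. At this threshold their t-test called 1 member in middle-aged against young mice, Cry2. The wider list gave 1 gene in old against young mice, 2 with array weights and at the methods' threshold, 0 after Benjamini-Hochberg of that test and without young 4 and middle-aged 2, and 0 to 2 without single arrays. In old against middle-aged mice it gave 0, but 1 with array weights and at the methods' threshold, and 0 to 1 without single arrays. The correlation of Dbp with Arntl was -0.067 with median scaling and -0.80 to -0.61 without single arrays. These runs were judged by the unadjusted permutation p, which was 0.015 with all arrays and 0.067 without middle-aged 1. After adjustment over the 36 pairs the correlation did not pass with all arrays (permutation, adjusted p = 0.089). No feature moved with Dbp under any of 28 alternatives. Features that moved with Per1 numbered 6, 14 with median scaling, 25 with array weights, 11 without middle-aged 5 and old 3, and 1 to 10 without single arrays. With median scaling 272 features moved with Arntl, against 0. Over 30 alternatives the features called among all ran from 24 to 870 in old against young mice (313 as reported), from 1 to 468 in old against middle-aged mice (30) and from 0 to 412 in middle-aged against young mice (1). Young 4 and middle-aged 2 were left out because their raw values carry 2 decimals where the others carry 1. The cause of these changes was not tested.

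The replicate numbers showed no general pairing of the mice: r between same-numbered arrays ran from -0.50 to 0.40, and 3 of 15 pairs exceeded 0.1. The best match of 5 of the 15 arrays carried the same number. For single clock genes the number did recur. Mouse 4 was the highest of its group for Per1 (deviations of 1.11, 0.86 and 0.59 in young, middle-aged and old mice). It was also the lowest for Arntl (-0.38, -0.20 and -0.37). Whether the numbers mark a shared condition was not tested. With the number as a block, 0 members were called in old against young mice (Cry2 adjusted p = 0.072), the correlation of Dbp with Arntl was -0.56, and 3 features moved with Per1 and 8 with Arntl.

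Members that were not called changed sign as follows (log2, old against young OY, old against middle-aged OM, middle-aged against young MY). Median scaling gave -0.056 for Dbp OY and -0.029 for Per2 OM, and the recomputed and deposited Z scores gave -0.00688 and -0.00682 for Per2 OM. Array weights gave -0.12 for Per2 MY and -0.00117 for Tef MY. Without middle-aged 5 and old 3 the values were -0.014 for Nr1d2 OY, 0.056 for Per1 OM, -0.13 for Per2 MY and -0.033 for Tef MY. Without young 4 and middle-aged 2 they were -0.15 for Nr1d1 MY, 0.064 for Per1 MY and -0.0377 for Per2 OM. Without single arrays the ranges were: Arntl MY -0.16 to 0.0082, Dbp OY -0.15 to 0.15, OM -0.071 to 0.23 and MY -0.17 to 0.031, Nr1d1 MY -0.094 to 0.23, Nr1d2 OY -0.014 to 0.36 and MY -0.20 to 0.0027, Per1 OM -0.61 to 0.087 and MY -0.73 to 0.29, Per2 OY -0.12 to 0.25, OM -0.17 to 0.22 and MY -0.13 to 0.21, Per3 MY -0.15 to 0.13, and Tef MY -0.033 to 0.090. The number of arrays and, for Per3 and Cry1, a signal near background limited the precision.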
